A study of Mus musculus with 16 samples.

Results

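The Rab GTPases of mouse bone marrow-derived macrophages were followed across 4 groups of cells. The members are all genes whose symbol is Rab, a number and at most a letter and a further digit, so that Rab effectors and regulators are left out. This gave 44 of the 10920 genes in the tables, of which 42 passed the filter on low values and were tested among 9891 genes. The cells came from C57BL/6 mice of 8 weeks that carried Sirt3 K223R, a lysine to arginine change in the mitochondrial deacetylase Sirt3, or were wild type. In all groups marrow cells became macrophages during 7 days with the growth factor M-CSF (20 ng/ml). The groups were Sirt3 K223R cells with IL-4 (20 ng/ml, 24 hours), untreated Sirt3 K223R cells, wild-type cells given the same IL-4, and untreated wild-type cells, with 4 RNA-seq libraries each. IL-4 is the cytokine that drives alternative activation of macrophages. How the Sirt3 allele was made, and whether replicates came from separate mice, is not given in the labels, so p-values measure the spread between these libraries, which may be technical.

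Rab proteins are small GTPases that give membranes their identity. Each is anchored by prenyl groups, is switched on by an exchange factor (GEF) that loads GTP on its own compartment, recruits effectors such as tethers and motors, and is switched off by a GTPase-activating protein (GAP). Rab5 marks early endosomes and young phagosomes, Rab7 late endosomes and lysosomes, Rab11 recycling endosomes, Rab1 and Rab2 traffic between endoplasmic reticulum and Golgi, and Rab8 and Rab27 secretion. In macrophages the order of Rab proteins on a phagosome, Rab5 and later Rab7, is the textbook example of how a compartment matures.

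The stretches of DNA directly upstream of the start sites are shown for 3 members whose transcript levels responded to IL-4 in both genotypes, Rab19 with a rise and Rab34 and Rab32 with falls. The sequences are from the RefSeq table for GRCm38.p6, read 5′ to 3′ on the gene's strand, and end before the gene starts given in the deposited tables. In the Rab19 and Rab34 stretches the capitals mark TTC and GAA held 3 bases apart, the palindrome that STAT proteins bind. In Rab34 they also mark TGANTCA, the AP-1 motif. In Rab32 they mark GAGGAA, the core bound by the macrophage factor PU.1, here on the opposite strand.
Rab19, 72 bases at chr6:39381103-39381174, plus strand: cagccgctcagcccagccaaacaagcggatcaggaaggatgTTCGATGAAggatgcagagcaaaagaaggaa
Rab34, 250 bases at chr11:78188177-78188426, plus strand: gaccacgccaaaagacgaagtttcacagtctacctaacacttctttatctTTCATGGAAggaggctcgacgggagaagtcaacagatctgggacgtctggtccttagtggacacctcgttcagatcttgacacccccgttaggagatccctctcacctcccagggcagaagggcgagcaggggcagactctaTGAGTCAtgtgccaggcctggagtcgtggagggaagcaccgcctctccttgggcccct
Rab32, 192 bases at chr10:10558266-10558457, minus strand: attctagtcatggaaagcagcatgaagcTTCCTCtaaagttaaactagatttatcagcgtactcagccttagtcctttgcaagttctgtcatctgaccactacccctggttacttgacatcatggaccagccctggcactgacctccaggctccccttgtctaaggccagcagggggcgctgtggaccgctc
STAT6, the factor that IL-4 activates, prefers the palindrome with 4 bases between TTC and GAA. Of 46 promoter windows of 250 bases belonging to the 38 members found in the table, 2 held that wider form, those of Rab11b and Rab5b, a share of 4.35% against 5.85% of all 32851 windows. The narrower form stood in 3 of the 46, those of Rab11a, Rab19 and Rab34, a share of 6.52% against 7.02%. Both strands were searched, and the GAGGAA core and the palindromes can share bases. The AP-1 motif stood in 1 of the 46, at 2.17% against 6.75%, and GAGGAA in 8, at 17.4% against 23.3%. The E-box CACGTG stood in 4, those of Rab20, Rab21, Rab27a and Rab5a, at 8.70% against 6.02%. A GC box, GGGCGG, stood in 32 windows, at 69.6% against 32.7%, and TGACG, the core of the cAMP response element, in 21, at 45.7% against 17.8%. These matches are letters only, and no binding was measured.

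The deposited values are read as FPKM, a level per transcript length and per library, although the tables name no unit. They are not whole multiples of a read, so sequencing depth is unknown and counting error has no stated interval. Summed FPKM lay between 288143 and 306581 per library. Libraries correlated with their own group at a median Pearson r, across genes on the log2(FPKM + 1) scale, of 0.985 to 0.990, except replicate 2 of Sirt3 K223R with IL-4 at 0.9797. Sirt3 itself averaged 1.32, 1.55, 1.36 and 1.48 FPKM in the 4 groups in the order given above, a level that cannot check a change of 1 residue. The IL-4 response genes Arg1, Chil3, Retnla and Mrc1 were higher with IL-4 in both genotypes, Arg1 at 356 against 1.84 FPKM in Sirt3 K223R and 320.4 against 2.05 FPKM in wild type. All 8 listed macrophage markers were present, with summed levels of 11080 to 12920 FPKM in Sirt3 K223R with IL-4, 13400 to 16150 in untreated Sirt3 K223R, 11020 to 12110 in wild type with IL-4 and 14550 to 16130 in untreated wild type. Of 9 neutrophil markers, 6 were in the tables, and their sum was 40.4 to 63.9 FPKM in Sirt3 K223R with IL-4, 105.3 to 144.7 in untreated Sirt3 K223R, 53.5 to 105.0 in wild type with IL-4 and 78.8 to 165.4 in untreated wild type. Of 4 platelet markers, Pf4 and Ppbp were in the tables, with sums of 248.9 to 324.3, 102.0 to 181.3, 93.4 to 237.9 and 44.5 to 160.3 FPKM in the same order. Of 5 stromal markers, 4 were present, at sums of 0.920 to 2.06, 5.31 to 6.37, 1.31 to 2.45 and 3.55 to 4.70 FPKM. Markers of T and NK cells, dendritic cells and mast cells were not analysed here, nor were all but 1 each of the B-cell and erythroid markers.

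The 44 Rab genes followed here were well expressed, with a median over members of 17.4 FPKM in the mean of all libraries, against 5.99 FPKM over all genes. Rab genes outside these 44 are not covered. Rab7, which drives fusion of late endosomes with lysosomes, had the highest mean level at 139.5 FPKM. After it came Rab5c, an early-endosome Rab, at 121.9 FPKM, Rab8b, which serves traffic to the plasma membrane, at 101.1, Rab1b, which acts between endoplasmic reticulum and Golgi, at 94.9, and Rab2a, which works on the Golgi and on late endosomes, at 73.7. These 5 genes held 41.97% of the summed Rab FPKM. The mean was 50 FPKM or more in 8 members and 10 or more in 26, while Rab27a, Rab42, Rab39 and Rab44 lay under 1. Rab7 had 129.7, 123, 134 and 136 FPKM in the libraries of Sirt3 K223R with IL-4, 137, 142, 139 and 141 in untreated Sirt3 K223R, 147, 146, 134 and 136 in wild type with IL-4 and 146, 146, 116 and 179.5 in untreated wild type. The untreated wild-type libraries held both its lowest and its highest value, and Rab7 passed the test in no comparison, save under an alternative normalization given with its set. Rab2a was the steadiest of the 5, with all 16 libraries between 70.2 and 77.8 FPKM. Summed over all 44 members, Rab FPKM was 1196 ± 59.1 in Sirt3 K223R with IL-4, 1273 ± 25.6 in untreated Sirt3 K223R, 1272 ± 41.9 in wild type with IL-4 and 1320.0 ± 52.5 in untreated wild type (SD, n = 4 each).

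**Figure D1:**
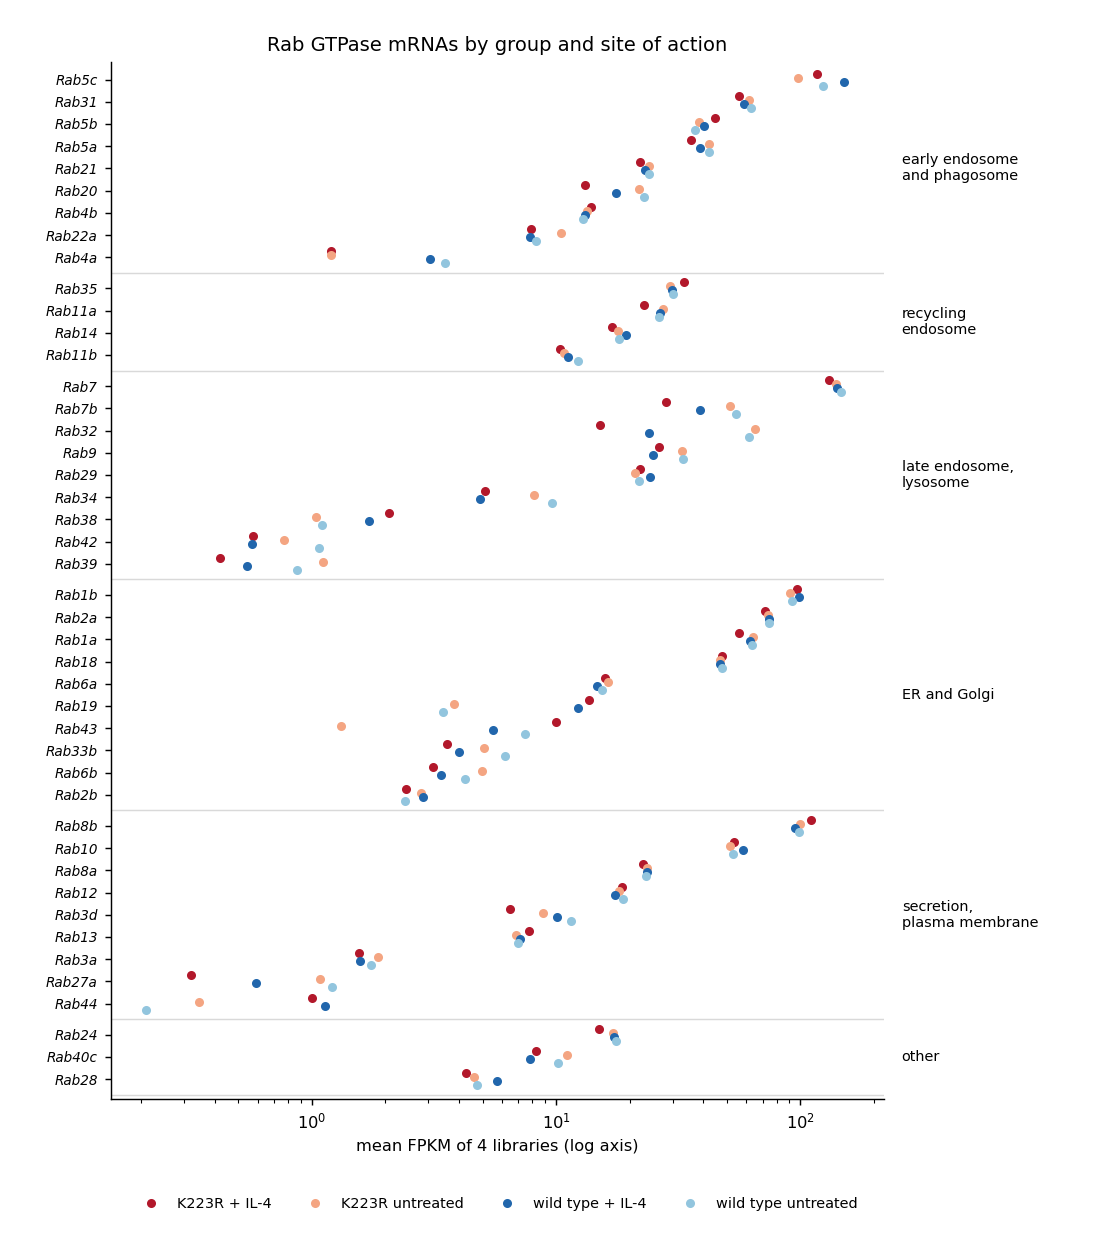
Mean FPKM of the 4 libraries of each group on a log axis, for all 44 Rab genes grouped by site of action and sorted by level within it; each dot is a group mean. Most members have their 4 dots close together, whereas Rab32, Rab7b, Rab34, Rab19, Rab44 and Rab27a separate the IL-4 dots from the untreated ones and Rab4a separates Sirt3 K223R from wild type.

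IL-4 changed a limited set of Rab transcripts in both genotypes. In Sirt3 K223R cells 5 of 42 members rose and 11 fell, where 13.5% of all tested genes rose and 29.1% fell. In wild-type cells 3 rose and 7 fell, where 10.7% of all tested genes rose and 15.3% fell (limma on log2(FPKM + 1), Benjamini-Hochberg adjusted p under 0.05 over all genes). The shares of members, 11.9% and 26.2% in Sirt3 K223R and 7.14% and 16.7% in wild type, lay near those of all genes. The median difference over members was -0.09 in Sirt3 K223R and -0.05 in wild type on the log2 scale, against -0.09 and -0.04 over all genes. With median-ratio scaling, which brought the median over all genes to 0.002 in both genotypes, the split in Sirt3 K223R was 9 higher and 8 lower, and in wild type 5 higher and 7 lower. All genes moved too, to 1986 higher and 1820 lower from 1332 and 2877 without scaling in Sirt3 K223R, and to 1364 and 1181 from 1057 and 1518 in wild type. Without replicate 2 of Sirt3 K223R with IL-4, the library that stands apart, 7 members rose and 10 fell in Sirt3 K223R. All genes then gave 1413 higher and 2705 lower. In both genotypes the summed macrophage and stromal markers were lower with IL-4, with no overlap between groups. Of 9 tested entries of the 8 macrophage markers, Mertk, Fcgr1 and Lyz2 fell in both genotypes, Itgam rose and 5 did neither. The median log2 difference over these entries was 0.004 in Sirt3 K223R and 0.046 in wild type. The 1 erythroid marker present, Car2, was higher without overlap, at 0.903 to 1.22 FPKM against 0.0676 to 0.124 untreated in Sirt3 K223R. In wild type Car2 had 0.904 to 1.34 against 0.0 to 0.202. It passed the filter through IL-4 libraries alone, so a difference was favoured. In Sirt3 K223R the neutrophil sum was also lower and the platelet sum higher without overlap, while in wild type both overlapped. Their part in the Rab results was not tested. In bulk RNA, fewer cells of a type and less RNA per cell cannot be told apart.

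In the late endosome and lysosome set, 4 of the 7 tested members fell and 1 rose in each genotype. That is 57.1% lower, beside 29.1% of all genes in Sirt3 K223R and 15.3% in wild type, in a set too small to read more from, and no set of Rabs by site was itself tested. Rab32, which sends cargo to lysosome-related organelles such as melanosomes and, in macrophages, to vacuoles around bacteria, had 17.9, 13.0, 14.4 and 15.2 FPKM in Sirt3 K223R with IL-4, against 70.9, 62.5, 64.4 and 63.7 in untreated Sirt3 K223R. In wild type it had 19.5, 20.4, 31.1 and 25.3 FPKM with IL-4, against 52.0, 56.5, 67.4 and 71.2 untreated. The groups were far apart in both genotypes: Rab32 was 4.32-fold lower with IL-4 in Sirt3 K223R (log2 difference -2.05 ± 0.13 SE, adjusted p = 1.23e-08) and 2.56-fold lower in wild type (-1.33 ± 0.13, adjusted p = 2.32e-06). Rab7b, which in cultured cells carries membrane between late endosomes and the trans-Golgi network and lowers Toll-like receptor signalling in mouse macrophages, had 28.2, 22.1, 29.9 and 32.1 FPKM with IL-4, against 48.9, 53.8, 52.2 and 50.2 without, in Sirt3 K223R. In wild type the values were 38.01, 39.0, 39.5 and 38.6 FPKM with IL-4, against 56.1, 56.0, 51.1 and 55.0 untreated. Rab7b fell by 0.86 ± 0.083 on the log2 scale in Sirt3 K223R (adjusted p = 7.85e-07) and by 0.48 ± 0.083 in wild type (adjusted p = 4.37e-04), again with no overlap of libraries.

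Rab34, which moves lysosomes towards the cell centre and takes part in phagosome maturation, also fell. It had 5.12, 5.70, 4.15 and 5.58 FPKM in Sirt3 K223R with IL-4, against 7.88, 6.97, 8.76 and 8.84 untreated (-0.57 ± 0.10, adjusted p = 4.41e-04). In wild type it had 4.22, 5.73, 5.52 and 4.13 FPKM with IL-4, against 10.0, 10.1, 9.21 and 9.16 untreated (-0.86 ± 0.10, adjusted p = 1.86e-05). Rab34 was thus among the members whose difference was larger in wild type. Rab9, which returns mannose 6-phosphate receptors from late endosomes to the Golgi, had 29.02, 22.1, 27.2 and 27.1 FPKM with IL-4, against 32.0, 31.5, 34.6 and 33.5 untreated, in Sirt3 K223R, and 27.5, 25.5, 23.2 and 23.7 against 35.9, 33.5, 30.2 and 33.04 FPKM in wild type. Its falls were small, 1.25-fold in Sirt3 K223R (adjusted p = 0.00447) and 1.33-fold in wild type (adjusted p = 0.00136), but no library crossed between groups. Rab38, the closest relative of Rab32 with an overlapping role at melanosomes, moved the other way at a far lower level. It had 1.97, 2.22, 1.99 and 2.12 FPKM with IL-4, against 1.27, 0.939, 1.01 and 0.951 without, in Sirt3 K223R (1.99-fold, adjusted p = 5.14e-06), and 1.88, 1.54, 1.74 and 1.68 against 1.18, 0.965, 0.985 and 1.27 FPKM in wild type (1.55-fold, adjusted p = 7.79e-04). Rab29, the third member of that subfamily and a partner of the kinase Lrrk2, and Rab7 did not pass the test in either genotype, although with quantile normalization Rab7 passed as lower in Sirt3 K223R (-0.24, adjusted p = 0.0385). The summed FPKM of the 9 late endosome and lysosome genes was 231 ± 11.6 in Sirt3 K223R with IL-4, against 321 ± 3.85 untreated, and 261 ± 4.18 in wild type with IL-4, against 331 ± 33.4 untreated (SD, n = 4 each).

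**Figure D2:**
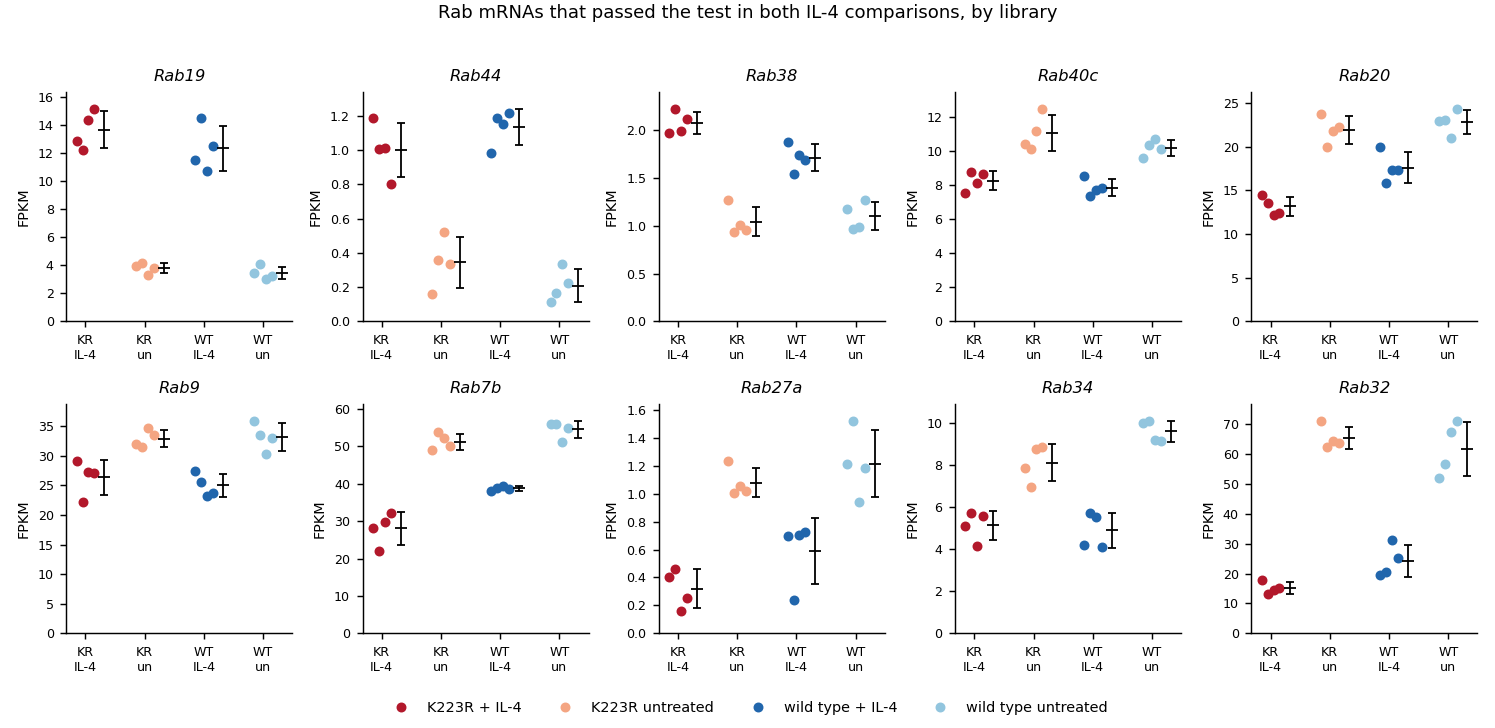
FPKM in every library for the 10 Rab genes that passed the test with IL-4 in both genotypes; dots are libraries in replicate order, the black mark and bar are mean and SD (n = 4), and the 4 groups stand from left to right as Sirt3 K223R (KR) with IL-4, KR untreated (un), wild type (WT) with IL-4 and WT untreated. In each panel the libraries of the IL-4 group and of the untreated group of a genotype do not overlap, which choosing genes by this test favours. Rab32 and Rab7b are lower in KR than in WT after IL-4.

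Among endoplasmic reticulum and Golgi Rabs the main change was in Rab19, which is found at the Golgi in Drosophila. Rab19 had 12.9, 12.3, 14.3 and 15.2 FPKM with IL-4 in Sirt3 K223R, against 3.95, 4.14, 3.28 and 3.84 untreated, and 11.5, 14.5, 10.8 and 12.5 with IL-4 in wild type, against 3.48, 4.06, 3.005 and 3.25 untreated. The lowest IL-4 library was above the highest untreated library of either genotype. The rise was 3.59-fold in Sirt3 K223R (1.61 ± 0.096, adjusted p = 4.60e-09) and 3.58-fold in wild type (1.58 ± 0.096, adjusted p = 1.15e-08). Rab6b, the form of the Golgi Rab6 that is abundant in neurons, fell in Sirt3 K223R to 3.08, 3.16, 3.16 and 3.16 FPKM with IL-4, against 4.79, 5.47, 5.46 and 4.15 untreated (-0.52 ± 0.12, adjusted p = 0.00364). In wild type Rab6b libraries overlapped between IL-4, at 2.348, 3.82, 3.19 and 4.13, and untreated cells, at 3.38, 3.83, 4.73 and 4.94 FPKM (adjusted p = 0.144); with replicate number as a block, which pairs the wild-type libraries, the same difference passed at an adjusted p of 0.0497, though not with the block as a random effect. The other 8 genes of this set, Rab1a, Rab1b, Rab2a, Rab2b, Rab6a, Rab18, Rab33b and Rab43, did not pass in either genotype. In Sirt3 K223R, Rab18 passed as higher with median-ratio scaling (0.0107) and Rab2a as lower with quantile normalization (0.0450).

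In the secretory set, 1 member rose and 1 fell in each genotype, both at low levels, which is 11.1% each way and near or under the shares of all genes. Rab44, a large Rab with calcium-binding EF hands that has been studied in mouse osteoclasts and mast cells, had 1.19, 1.00, 1.01 and 0.803 FPKM with IL-4, against 0.161, 0.361, 0.522 and 0.337 untreated, in Sirt3 K223R. In wild type it had 0.9803, 1.19, 1.15 and 1.22 FPKM with IL-4, against 0.115, 0.165, 0.336 and 0.222 untreated. Rab44 was 2.90-fold higher in Sirt3 K223R (adjusted p = 7.32e-05) and 5.43-fold higher in wild type (adjusted p = 3.69e-06). Rab27a, which docks lytic granules and exosome-bearing endosomes at the plasma membrane, had 0.404, 0.464, 0.160 and 0.253 FPKM with IL-4, against 1.23, 1.01, 1.05 and 1.02 untreated, in Sirt3 K223R and 0.694, 0.238, 0.708 and 0.727 against 1.22, 1.52, 0.938 and 1.18 FPKM in wild type. It fell by 0.66 ± 0.11 in Sirt3 K223R and by 0.48 ± 0.11 in wild type on the log2 scale (adjusted p = 2.25e-04 and 0.00436). As a ratio of mean FPKM it was 3.37-fold and 2.05-fold lower, second to Rab32 among the tested members in both genotypes, since the log2(FPKM + 1) scale compresses genes this low. Rab44 entered the test through its IL-4 libraries and Rab27a through its untreated ones, so for them a difference was favoured by the filter. When only the groups compared were fitted, Rab44 in both genotypes and Rab27a in wild type did not pass the filter and were not tested. Rab3a, Rab3d, Rab8a, Rab8b, Rab10, Rab12 and Rab13 did not pass in either genotype. In Sirt3 K223R, Rab8b and Rab13 passed as higher without replicate 2 of the IL-4 group (0.0129 and 0.00568) and with median-ratio scaling (0.0210 and 0.0333), Rab13 also with quantile normalization (0.0432), and Rab3a passed as lower without replicate 4 of the untreated group (0.0276). With median-ratio scaling Rab10 passed as higher in both genotypes (0.02764 in Sirt3 K223R and 0.0271 in wild type).

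Of the 9 early endosome Rabs, 3 fell and 1 rose in Sirt3 K223R and 1 fell in wild type, and the difference between these counts was not tested. The falls are 33.3% and 11.1% of the set, beside the 29.1% and 15.3% of all genes. Rab20, found on phagosomes of mouse macrophages and needed for their maturation, fell in both. It had 14.4, 13.6, 12.2 and 12.4 FPKM with IL-4, against 23.8, 19.9, 21.8 and 22.3 untreated, in Sirt3 K223R (-0.69 ± 0.075, adjusted p = 2.48e-06) and 20.0, 15.8, 17.3 and 17.4 against 22.9, 23.0, 21.0 and 24.3 FPKM in wild type (-0.36 ± 0.075, adjusted p = 0.00203). Rab5b, an early-endosome fusion Rab, rose in Sirt3 K223R to 43.5, 44.2, 45.6 and 45.9 FPKM, against 38.4, 37.9, 39.0 and 37.8 untreated, a step of 1.17-fold (adjusted p = 0.00151). In wild type it had 43.2, 39.9, 38.5 and 40.2 FPKM with IL-4 and 36.3, 34.1, 39.1 and 38.1 untreated, groups that overlap at 1 library (1.097-fold, adjusted p = 0.0525). That difference passed without replicate 3 of wild type with IL-4 (0.0377), without replicate 3 of untreated wild type (0.0300) and without replicate 2 of Sirt3 K223R with IL-4 (0.0427). It also passed with median-ratio scaling (0.00617) and with the replicate block as a random effect (0.0355), though not with the block as a fixed term.
Rab5a, its close relative, went down in Sirt3 K223R to 36.6, 28.1, 38.9 and 38.9 FPKM with IL-4, against 44.7, 40.6, 45.6 and 38.9 untreated, and the groups overlap at their edges while replicate 2 of the IL-4 group was far below the rest. This call (adjusted p = 0.0246) was lost with median-ratio scaling (0.154), when only the groups compared were fitted (0.0885) and without replicate 1 (0.0657) or 3 (0.0756) of the untreated group. Rab31, which carries cargo between the Golgi and endosomes, fell 1.105-fold in Sirt3 K223R (adjusted p = 0.0339), a call also lost under median-ratio scaling (0.599), when only the groups compared were fitted (0.0630), without replicate 1 (0.0801) or 2 (0.0862) of the IL-4 group and without replicates 2 (0.0601), 3 (0.0865) or 4 (0.0600) of the untreated group. With quantile normalization Rab31 passed as lower in wild type too (0.0350). Rab4a, Rab4b, Rab5c, Rab21 and Rab22a did not pass in either genotype, although the Rab21 libraries of Sirt3 K223R did not overlap, at 21.3, 22.0, 22.2 and 22.4 FPKM with IL-4 and 24.5, 23.4, 25.2 and 22.6 untreated (adjusted p = 0.0678, or 0.0410 without replicate 4 of the untreated group and 0.0432 with the replicate block as a random effect).

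Of the 4 recycling Rabs, Rab35 rose and Rab11a fell in Sirt3 K223R, and none passed in wild type, in a set too small for its shares to be read against all genes. Rab35, which returns receptors from endosomes to the plasma membrane, had 34.8, 33.1, 32.2 and 33.3 FPKM with IL-4, against 29.2, 28.4, 30.3 and 29.2 untreated (1.14-fold, adjusted p = 0.00920). In wild type it had 30.6, 32.3, 29.2 and 27.5 and 29.2, 30.6, 32.0 and 28.8 FPKM, with overlapping libraries. Rab11a, which defines the recycling endosome, had 22.3, 20.8, 23.2 and 25.4 FPKM with IL-4 and 24.8, 27.6, 29.2 and 28.4 untreated. Those groups overlap, and the call (adjusted p = 0.0155) was lost with median-ratio scaling (0.1503). Rab11b and Rab14 did not pass. Outside these sets, Rab40c, which carries a SOCS box and works with ubiquitin ligases, fell in both genotypes. Rab40c had 7.52, 8.79, 8.12 and 8.64 FPKM with IL-4, against 10.4, 10.1, 11.2 and 12.5 untreated, in Sirt3 K223R (1.34-fold lower, adjusted p = 3.64e-04) and 8.56, 7.35, 7.70 and 7.81 against 9.56, 10.3, 10.7 and 10.1 FPKM in wild type (1.30-fold lower, adjusted p = 0.00149). Rab24, linked to autophagy, and Rab28 did not pass, although Rab24 did in Sirt3 K223R as lower without replicate 1 of the IL-4 group (0.0135), without replicate 2 (0.0482) or 3 (0.0480) of untreated wild type and with the replicate block as a random effect (0.0425).

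All 10 members that passed in wild type passed in Sirt3 K223R in the same direction, which is 100% of the wild-type calls and 62.5% of the 16 Sirt3 K223R calls. Among the 10 are Rab44 and Rab27a, for which the filter favoured a difference. Over all genes the same shares were 82.8% and 50.6%. The difference was larger in Sirt3 K223R for 7 of the 10, and for 72.3% of all genes called in both. Across the 42 members the responses had a Pearson r of 0.725 and a Spearman rho of 0.70, against 0.867 and 0.705 over all genes. These are correlations across genes, which are not independent, and all genes of a comparison share its 8 libraries. The 6 members called in Sirt3 K223R alone were Rab5a, Rab5b, Rab6b, Rab11a, Rab31 and Rab35, of which Rab5b, Rab6b and Rab31 passed in wild type under the alternatives given above.

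**Figure D3:**
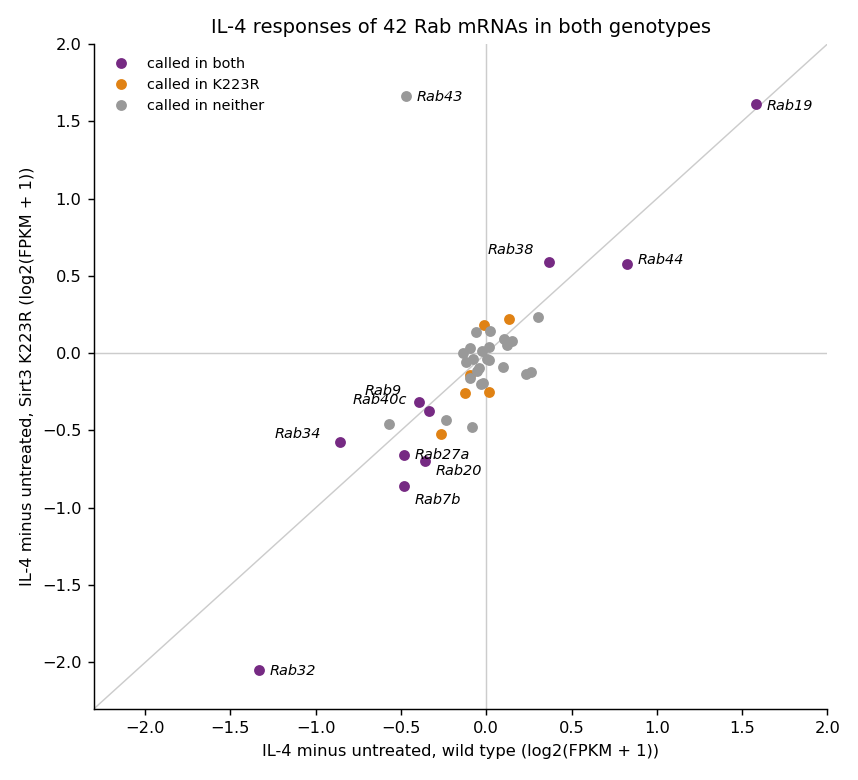
IL-4 minus untreated on the log2(FPKM + 1) scale in wild type (horizontal) and Sirt3 K223R (vertical) for the 42 tested Rab genes; each dot is a gene, colours give the test result and the grey diagonal marks equal responses. Rab19 lies on the diagonal at the upper right, Rab32, Rab7b and Rab20 lie below it, and Rab43 stands apart because its libraries split into separate levels.

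Whether the IL-4 response differs between genotypes was tested with the interaction, the Sirt3 K223R response minus the wild-type response. Of the members 0 passed, with limma, where 0.778% of all genes were higher and 1.36% lower. An unadjusted p under 0.05 was found for 6 of 42 members, beside 1588 of all 9891 genes. The 3 smallest p-values belonged to Rab32, Rab7b and Rab20, all with a larger fall in Sirt3 K223R. Rab32 differed by -0.71 ± 0.19 SE on the log2 scale (adjusted p = 0.0656). It passed without replicate 1 of wild type with IL-4 (0.0422), and with replicate number as a fixed block (0.00822) or a random effect (0.0268). Rab7b differed by -0.38 ± 0.12 (adjusted p = 0.118) and passed without replicate 2 of Sirt3 K223R with IL-4 (0.0450). Rab20 differed by -0.34 ± 0.10 (adjusted p = 0.121). The next were Rab35 at 0.20, Rab11a at -0.27 and Rab38 at 0.22, with adjusted p-values of 0.187, 0.235 and 0.266. For Rab19 the responses differed by 0.028 ± 0.14 (adjusted p = 0.943).

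After IL-4, 4 Rab genes were lower in Sirt3 K223R than in wild type and 0 were higher by the same test. Among all genes 10.0% were lower and 5.0% higher, so the members' 9.52% lay near the background, and the median difference was -0.07 over members and -0.05 over all genes. At an unadjusted p under 0.05 there were 13 of 42 members, beside 2995 of all 9891 genes. This comparison shares its Sirt3 K223R libraries with the IL-4 response in that genotype, and its wild-type libraries with the wild-type response. Rab7b had 28.2, 22.1, 29.9 and 32.1 FPKM in Sirt3 K223R and 38.01, 39.0, 39.5 and 38.6 in wild type, with every Sirt3 K223R library below every wild-type one (1.38-fold lower, -0.47 ± 0.083, adjusted p = 0.00203). Rab20 averaged 13.2 ± 1.05 FPKM in Sirt3 K223R and 17.6 ± 1.73 in wild type (SD, n = 4 each), again without overlap (1.34-fold lower, adjusted p = 0.00314 by limma). Rab32 averaged 15.1 ± 2.04 FPKM in Sirt3 K223R and 24.1 ± 5.31 in wild type (SD, n = 4 each), and its highest Sirt3 K223R library, at 17.9 FPKM, was below the lowest wild-type one, at 19.5 (1.59-fold lower, adjusted p = 0.00642 by limma). Rab4a, which recycles receptors from early endosomes back to the surface, had 0.902, 1.52, 1.17 and 1.19 FPKM in Sirt3 K223R, against 3.48, 3.44, 3.55 and 1.68 in wild type (2.54-fold lower, -0.85 ± 0.21, adjusted p = 0.0128). With replicate number as a fixed block, fitted on the groups compared, all 4 calls were lost (limma adjusted p of 0.0608 to 0.0877). All genes lower then numbered 77 of 9531. The block as a random effect kept all 4. Between genotypes libraries share only that number. Summed platelet markers, mostly Pf4, were higher in Sirt3 K223R with IL-4 than in wild type with IL-4 in every library, and their part in these differences was not tested. Pf4, the only platelet marker tested, did not itself pass in this comparison (0.74 on the log2 scale). Only the Sirt3 K223R tables list a type for each gene, and a difference in how they were made cannot be told apart from genotype.
Just above the threshold stood Rab5b, with 43.5, 44.2, 45.6 and 45.9 FPKM in Sirt3 K223R, against 43.2, 39.9, 38.5 and 40.2 in wild type (0.14, adjusted p = 0.0511), Rab35 (0.16, 0.0515) and Rab14, a Rab of the Golgi to endosome route (-0.19, 0.0543). With median-ratio scaling Rab5b, Rab35, Rab38 and Rab8b passed as higher in Sirt3 K223R, so that 4 were higher and 4 lower, where all genes gave 820 higher and 613 lower in place of 495 and 992. With quantile normalization Rab5b, Rab35 and Rab38 passed, for 3 higher and 4 lower, where all genes gave 701 higher and 700 lower. Single libraries decided further calls in both directions. As higher in Sirt3 K223R, Rab8b (0.00797) and Rab13 (0.0440) passed without replicate 2 of Sirt3 K223R with IL-4, Rab5b without replicate 1 of wild type with IL-4 (0.0289), and Rab35 without replicate 2 of wild type with IL-4 (0.0255). Leaving out a library of untreated wild type, which this comparison does not use directly, did so for Rab5b (replicate 2, 0.0335, or 3, 0.0466) and Rab35 (replicate 3, 0.0486). As lower, Rab14 (0.0188) and Rab11a (0.0445) passed without replicate 4 of Sirt3 K223R with IL-4, Rab24 without replicate 1 of that group (0.0323), Rab27a without replicate 2 of wild type with IL-4 (0.0179), and Rab11a without replicate 1 of untreated wild type (0.0467).

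**Figure D4:**
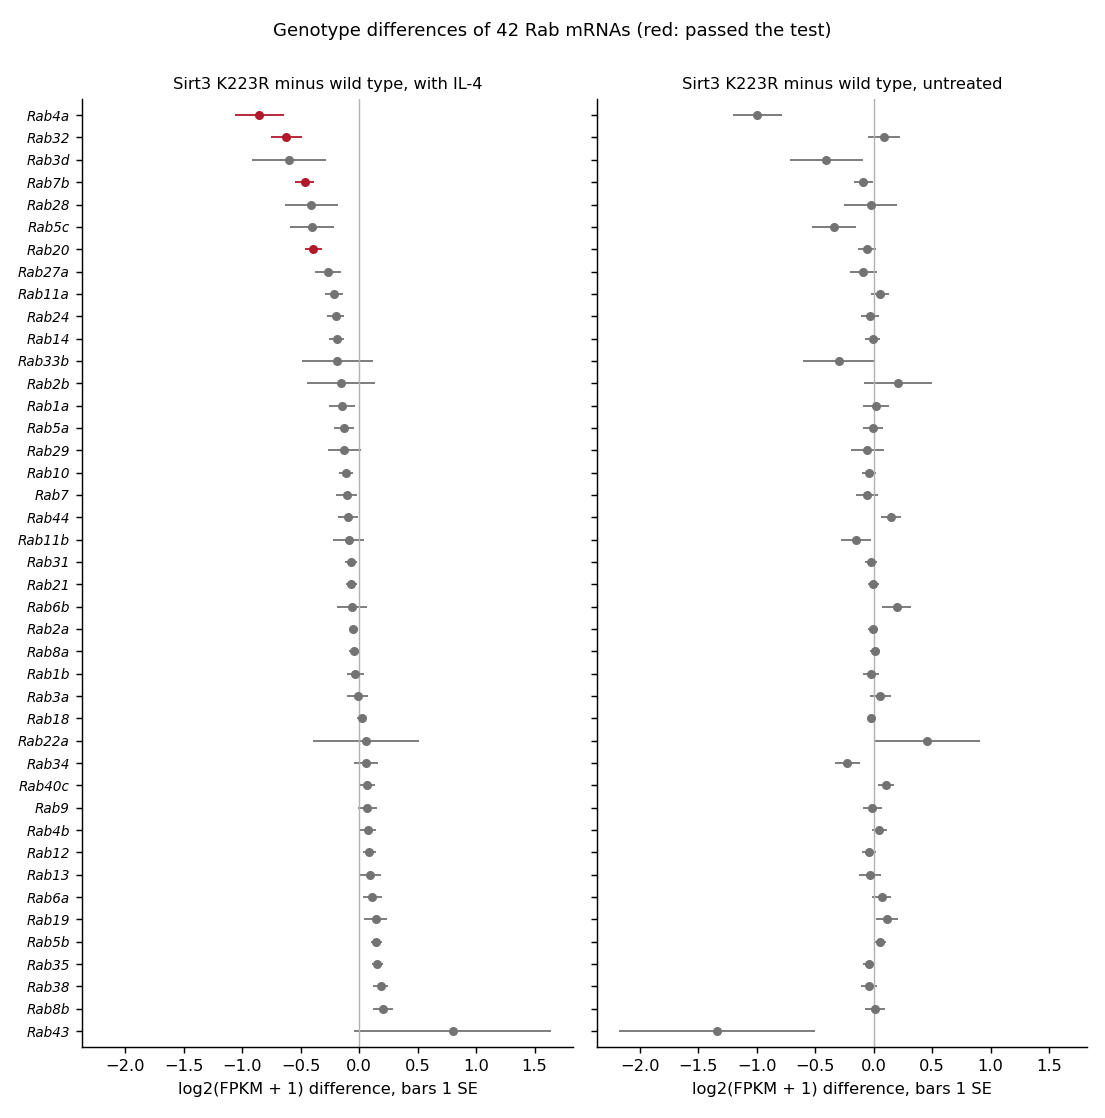
Sirt3 K223R minus wild type on the log2(FPKM + 1) scale with IL-4 (left) and untreated (right), 42 tested Rab genes sorted by the left panel; dots are estimates, bars 1 SE and red marks an adjusted p under 0.05. Rab4a, Rab32, Rab7b and Rab20 are red on the left, none is red on the right, and Rab4a is far to the left of zero in both panels.

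In untreated cells 0 of 42 members passed between the genotypes, as 0.0% of all genes did in either direction with limma, while 2 members and 737 of all genes had an unadjusted p under 0.05. Those members were Rab4a and Rab34. Rab4a had 0.899, 1.59, 0.903 and 1.42 FPKM in Sirt3 K223R, against 2.59, 4.14, 5.11 and 2.16 in wild type, with no overlap (2.91-fold lower, -0.99 ± 0.21, adjusted p = 0.228). The sign and size were like those with IL-4, and the interaction of Rab4a was 0.14 ± 0.29 (adjusted p = 0.853). Rab34 had 7.88, 6.97, 8.76 and 8.84 FPKM in Sirt3 K223R, against 10.0, 10.1, 9.21 and 9.16 in wild type (1.19-fold lower, adjusted p = 0.670). Rab32, Rab7b and Rab20 stood close together at rest: Rab32 averaged 65.4 ± 3.79 FPKM in Sirt3 K223R and 61.8 ± 9.003 in wild type, Rab7b 51.3 ± 2.13 and 54.6 ± 2.34, and Rab20 21.9 ± 1.57 and 22.8 ± 1.38 (SD, n = 4 each).

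Several Rab genes had libraries of the same group on separated levels. A gap of at least 2-fold between neighbouring libraries of a group, once sorted, was found in 8 of 42 tested members, or 19.0%, and in 7.12% of all tested genes. With a gap of 1.5-fold it was 9 members, or 21.4%, and 18.2% of all genes. The 8 were Rab2b, Rab3d, Rab4a, Rab22a, Rab27a, Rab33b, Rab43 and Rab44. Rab43, a Golgi Rab, showed it most, with 18.7, 17.8, 2.10 and 1.498 FPKM in Sirt3 K223R with IL-4, 1.09, 1.21, 1.56 and 1.38 in untreated Sirt3 K223R, 17.4, 1.62, 1.34 and 1.77 in wild type with IL-4 and 1.35, 12.8, 14.3 and 1.32 in untreated wild type. Its libraries were at 12.8 FPKM or above, or at 2.10 or below, with none between, and a mean of such a group describes no library. Rab43 overlaps Gm45140 and Rab4a overlaps Gm20388 on the same strand in GENCODE M21, and those genes were not analysed here. Rab22a, which works between early and recycling endosomes, was at 2.89, 2.12 and 2.50 FPKM in 1 library each of Sirt3 K223R with IL-4, wild type with IL-4 and untreated wild type, and at 9.21 to 10.8 in the other 13. Rab3d, a Rab of secretory granules, had 11.9, 5.18, 4.43 and 4.43 FPKM in Sirt3 K223R with IL-4, 11.3, 10.5, 9.23 and 4.41 in untreated Sirt3 K223R, 11.6, 12.4, 4.88 and 11.5 in wild type with IL-4 and 10.7, 11.2, 11.6 and 12.3 in untreated wild type.
Rab33b, which acts at the Golgi and in autophagosome formation, had 1.78, 1.98, 5.10 and 5.39 FPKM in Sirt3 K223R with IL-4 and 6.27, 5.66, 2.48 and 5.80 untreated, and 4.65, 1.91, 4.24 and 5.29 in wild type with IL-4 and 6.49, 6.36, 5.75 and 6.05 untreated. Rab5c, with a largest gap of 1.49-fold, is named here after its values were seen: it had 91.5, 85.5, 137 and 152 FPKM in Sirt3 K223R with IL-4 and 129, 85.3, 88.6 and 87.1 untreated, and 154, 156, 139.5 and 151 in wild type with IL-4 and 127, 142, 89.4 and 135 untreated. Its libraries fell at 85.3 to 91.5 FPKM or at 126.8 to 156.1. All 4 wild-type IL-4 libraries were on the upper level and 3 of 4 untreated Sirt3 K223R libraries on the lower. No comparison of Rab5c passed, at standard errors of 0.19. Of the members without a gap of 1.5-fold, 33 in all, those that did not pass lay between -0.20 and 0.23 for IL-4 in Sirt3 K223R and between -0.26 and 0.30 in wild type on the log2 scale.

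**Figure D5:**
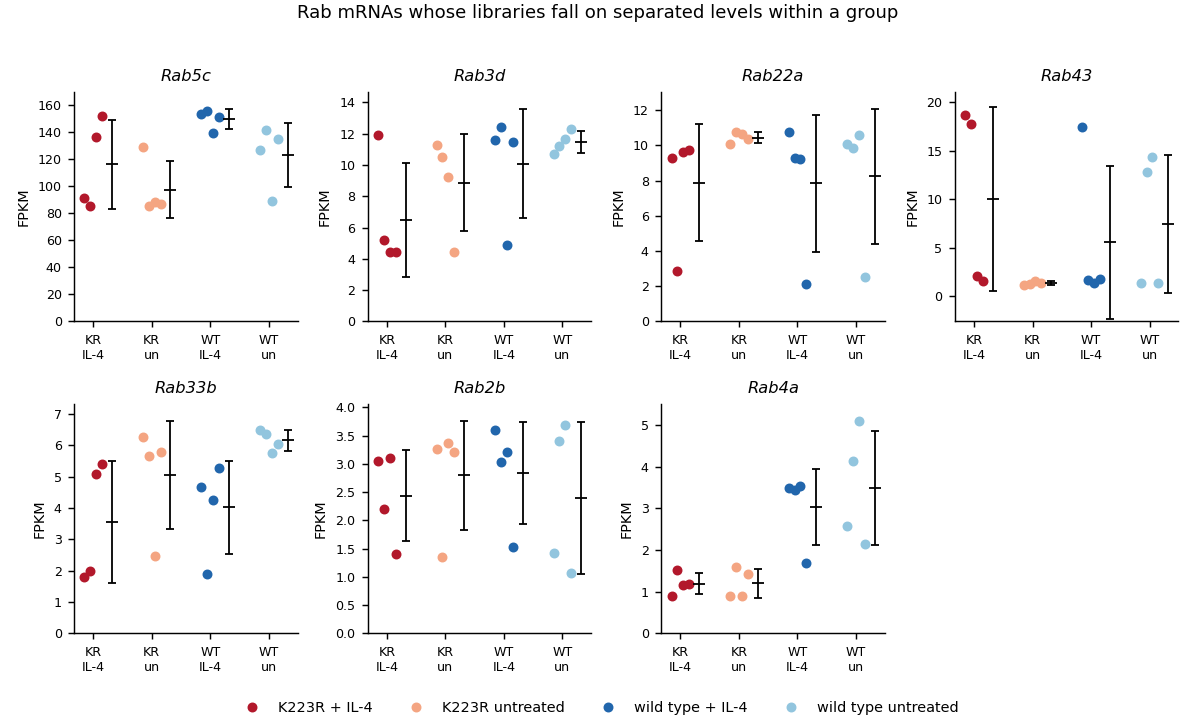
FPKM in every library for Rab5c and 6 Rab genes with a gap of at least 2-fold within a group and a mean of at least 1 FPKM; dots are libraries in replicate order, the black mark and bar are mean and SD (n = 4), and KR is Sirt3 K223R, WT wild type and un untreated. Rab43 shows libraries at 12.8 to 18.7 FPKM or at 1.09 to 2.10, Rab22a has 3 libraries under 3 FPKM, and all Rab4a libraries of KR lie at or under 1.59.

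Close paralogues were often set apart by level, and within some pairs only 1 member passed with IL-4. No paralogue was tested against its partner. Levels are mean FPKM over all libraries, a per-length scale. Rab7 stood at 139.5 and did not pass, apart from the quantile-normalized fall given above, while Rab7b stood at 43.2 and fell in both genotypes. Rab5c, Rab5b and Rab5a stood at 121.9, 40.1 and 39.8, and in Sirt3 K223R Rab5b rose and Rab5a fell. The Rab5a call was lost under the alternatives given above. In the Rab32 subfamily, Rab32 stood at 41.6, Rab29 at 22.3 and Rab38 at 1.48, and Rab32 fell while Rab38 rose. Rab6a stood at 15.6 and Rab6b at 3.93, and only Rab6b passed with IL-4 in Sirt3 K223R, a contrast within the pair that was not itself tested. Rab11a stood at 25.9 and Rab11b at 11.2, and Rab31 stood at 59.9 and Rab22a at 8.61. Rab4b stood at 13.3 and Rab4a at 2.23, and Rab4b, with 13.9 ± 1.34 FPKM in Sirt3 K223R and 13.1 ± 0.743 in wild type after IL-4 (SD, n = 4 each), did not share the low level of Rab4a in Sirt3 K223R (adjusted p = 0.465 by limma). Rab1b and Rab1a stood at 94.9 and 61.5, Rab2a and Rab2b at 73.7 and 2.62, Rab8b and Rab8a at 101.1 and 23.3, and Rab3d and Rab3a at 9.23 and 1.69, and none of these 8 passed in any comparison, apart from the calls of Rab2a, Rab8b and Rab3a under alternatives given above. How reads of near-identical stretches were divided between paralogues is not known from the sources used here. The opposite-strand overlaps of Rab24 with Prelid1, Rab2b with Tox4, Rab3a with Mpv17l2 and Rab6a with Mrpl48 add the same uncertainty, since the strand setting is not given.

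The proteins that load, switch and read Rabs were followed in a list of 138 genes, of which 114 were tested. In Sirt3 K223R 19 rose and 36 fell with IL-4, or 16.7% and 31.6%, and in wild type 13 rose and 23 fell, or 11.4% and 20.2%, beside the shares of all genes given above. The median difference was -0.11 in Sirt3 K223R and -0.09 in wild type, against -0.09 and -0.04 over all genes. Of 30 GEFs 6 rose and 8 fell in Sirt3 K223R, against 4 and 7 in wild type, and of 30 GAPs 6 rose and 9 fell, against 6 and 5. Of 46 effectors 7 rose and 15 fell in Sirt3 K223R, and 3 rose and 9 fell in wild type. Of 8 genes for prenylation and GDP dissociation inhibitors, 0 rose and 4 fell in Sirt3 K223R, and 0 rose and 2 fell in wild type. Those falls are 50% and 25%, beside 29.1% and 15.3% of all genes, in a list too small to read more from.
The largest rise was that of Rab3il1, an exchange factor for Rab8 and Rab3A, with 57.8 FPKM with IL-4 against 16.4 untreated in Sirt3 K223R (1.75, adjusted p = 2.42e-10) and 58.2 against 18.9 in wild type (1.57, adjusted p = 1.65e-09). The Rab8 genes themselves did not pass. Tbc1d2b, a TBC-domain GAP, rose by 0.92 and 0.71 on the log2 scale in Sirt3 K223R and wild type, Rin3, an exchange factor of the Rab5 family, by 0.83 and 0.60, and Mical2, an actin-oxidising enzyme of the MICAL family, by 0.53 and 0.79. The falls in Sirt3 K223R included Tbc1d9, a TBC-domain protein, at -0.97, Dennd1c, a DENN-domain GEF of Rab35, at -0.78, and Madd, a GEF of Rab3 and Rab27, at -0.64. In wild type they included Rilpl1, which binds phosphorylated Rab8 and Rab10, at -0.57, Madd at -0.51, Rabggta, a subunit of the enzyme that prenylates Rabs, at -0.50, and Dennd1c at -0.48.

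Between genotypes after IL-4, 3 of these regulators and effectors were higher in Sirt3 K223R and 6 lower, or 2.63% and 5.26%, beside 5.0% and 10.0% of all genes. In untreated cells 0 passed, and 2 of the 114 had an unadjusted p under 0.05, beside 737 of all 9891 genes. Rab11fip5, an effector of Rab11 in recycling, had 28.6 FPKM with IL-4 and 20.8 untreated in Sirt3 K223R, and 21.2 with IL-4 and 19.9 untreated in wild type. It was higher in Sirt3 K223R with IL-4 (0.42, adjusted p = 2.76e-04) and was the only gene of the 114 whose IL-4 response differed between genotypes (0.36, adjusted p = 0.0290), a share of 0.877% beside 0.778% of all genes higher. Sgsm2 and Tbc1d9b, both TBC-domain GAP genes, were higher by 0.24 and 0.16. Among the lower ones were Osbpl1a, a Rab7 effector that senses cholesterol (-0.41), Appl2, a Rab5 effector (-0.35), and Dennd2d, a DENN-domain GEF at under 1 FPKM (-0.26).

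The pair that did not pass the filter, Rab39 and Rab42, are both assigned to late compartments. Rab39 had 0.642, 0.378, 0.338 and 0.331 FPKM in Sirt3 K223R with IL-4, against 1.23, 0.722, 0.966 and 1.51 untreated, and 0.622, 0.452, 0.665 and 0.435 in wild type with IL-4, against 0.547, 0.874, 0.911 and 1.13 untreated. Rab42 had 0.279, 0.674, 0.799 and 0.538 FPKM in Sirt3 K223R with IL-4, against 0.630, 0.485, 0.706 and 1.24 untreated, and 0.681, 0.761, 0.101 and 0.730 in wild type with IL-4, against 0.962, 1.95, 0.669 and 0.696 untreated. Rab39 libraries of Sirt3 K223R did not overlap between IL-4 and untreated cells, whereas those of wild type and all of Rab42 did. With no filter Rab39 passed as lower with IL-4 in Sirt3 K223R (-0.56, adjusted p = 0.00141 by limma).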

How the data were processed

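RNA sequencing of mouse bone marrow-derived macrophages was used, 16 libraries in 4 groups of 4. Per the labels' protocols, RNA was Trizol-extracted, enriched by poly(A) selection or by rRNA removal (which for which library is not given) and sequenced as stranded (dUTP) paired-end libraries. The values the authors deposited per gene were taken as FPKM, inferred from non-whole values, and TPM remains possible. No aligner, counting tool or strand setting is given in the sources used here, and depth is unknown. Coordinates equal GENCODE M21 on GRCm38 for all 9510 identifiers found there.

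Here values were set to log2(FPKM + 1), a pseudocount of 1 that understates changes of low genes, and genes at 1 or more in at least 4 libraries were kept. Group means were fitted with limma 3.58.1 in R 4.3.3 with a mean-variance trend, with Benjamini-Hochberg adjustment over 9891 genes, and tested on simulated data. Summaries used Python 3.11.15 with pandas 2.3.3. The members and lists were chosen with earlier results of these data known. Named with library values were up to 6 called members per direction and comparison, the 3 smallest interaction p-values, the 5 highest members and paralogue sets. From the list of regulators and effectors up to 4 called genes per direction were named, and Sirt3, Arg1, Chil3, Retnla and Mrc1 were check genes. Pairing of same-numbered libraries was judged by the correlation, across genes, of how each departs from its group mean. A genotype counted as paired if all 4 values were over 0.1. They were 0.286, 0.122, 0.1001 and 0.116 in wild type, which counts as paired, and 0.0524, 0.083, 0.127 and -0.0452 in Sirt3 K223R, which does not. In Sirt3 K223R a pair of unlike numbers, IL-4 replicate 2 with untreated replicate 4, reached 0.155. Whether pairing differs between the genotypes was not tested. The alternatives were a pseudocount of 0.1, no filter, median-ratio scaling, quantile normalization, replicate number as a fixed or random block, only the groups compared, no trend, and each library left out.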

Additional observations from a re-analysis of the deposited data

Results flagged for a closer look

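Each tested Rab gene was examined in each group of 4 libraries, 168 sets in all, for a library whose gap to its nearest neighbour took up so much of the group's range that it passed Dixon's 95% critical value. That marked 15 sets, and chance marks about 5% of such sets.

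Within the IL-4 group of Sirt3 K223R, 3 genes set replicate 2 apart, low in Rab8b at 89.8 FPKM where the others lay at 115.4 to 119.9, high in Rab1b at 114.2 where the others lay at 91.1 to 92.02, and low in Rab22a at 2.89 where the others lay at 9.28 to 9.72. Replicate 1 of that group stood high in Rab3d at 11.9 FPKM, with the others at 4.43 to 5.18, and low in Rab6b at 3.08, a gap that is small beside its level because the others lay at 3.160 to 3.163.

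In untreated Sirt3 K223R, replicate 1 was high in Rab5c at 129 FPKM, with the others at 85.3 to 88.6. Replicate 2 was low in Rab2b at 1.36 FPKM, with the others at 3.21 to 3.37, and replicate 3 was low in Rab33b at 2.48, with the others at 5.66 to 6.27.

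In wild type with IL-4, replicate 1 was high in Rab10 at 64.3 FPKM, with the others at 55.1 to 56.6, and in Rab43 at 17.4, with the others at 1.34 to 1.77. Replicate 2 was low in Rab27a at 0.238 FPKM, with the others at 0.694 to 0.727. Replicate 3 was low in Rab3d at 4.88 FPKM, with the others at 11.5 to 12.4, and replicate 4 was low in Rab4a at 1.68, with the others at 3.44 to 3.55.

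In untreated wild type, replicate 4 was low in Rab6a at 14.3 FPKM, with the others at 15.79 to 15.99, and in Rab22a at 2.50, with the others at 9.83 to 10.6.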

How the results depend on the processing

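Of 30 calls of a Rab gene in a comparison, 20 held under every one of the 24 alternatives that applies to them and 7 did not. The other 3, Rab44 in both genotypes and Rab27a in wild type with IL-4, held wherever they were tested but did not pass the filter when only the groups compared were fitted. No call changed sign. Median-ratio scaling gave 9 members higher with IL-4 in Sirt3 K223R and 5 in wild type, and 4 higher in Sirt3 K223R than in wild type with IL-4, where quantile normalization gave 3. The counts over all genes moved with that scaling as well, as given above. By the cut-off used, replicate numbers pair libraries in wild type only. There the fixed replicate block added the fall of Rab6b to give 8 lower, and the block as a random effect added the rise of Rab5b to give 4 higher. All genes then gave 1594 lower with the fixed block and 1173 higher with the random effect, in place of 1518 and 1057. Neither form of the block changed another Rab call in wild type. In Sirt3 K223R the fixed block changed no call and the random effect gave 13 lower, where 3165 of all genes were lower in place of 2877. Between genotypes the libraries share only a number. With it as a replicate block in a fit on the groups compared, 0 members were lower in Sirt3 K223R with IL-4, while the differences stayed at -0.47 for Rab7b, -0.62 for Rab32, -0.39 for Rab20 and -0.85 for Rab4a (adjusted p-values of 0.0608 to 0.0877 by limma), and all genes lower numbered 77 of 9531. With the block as a random effect 4 members were lower, where all genes lower numbered 987 of 9891. In the interaction 1 member, Rab32, was lower with either form of the block. All genes lower in the interaction then numbered 196 with the fixed block and 264 with the random effect, in place of 135 of 9891. Fitting only the groups compared gave 4 higher and 9 lower in Sirt3 K223R and 2 higher and 6 lower in wild type. All genes then gave 1213 higher and 2522 lower in Sirt3 K223R and 1001 and 1385 in wild type. The cause of these changes was not tested.

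Leaving out each library in turn gave 5 to 7 members higher and 9 to 12 lower with IL-4 in Sirt3 K223R, 3 to 4 higher and 7 lower in wild type, 0 to 2 higher and 4 to 6 lower in Sirt3 K223R against wild type with IL-4, 0 in either direction in untreated cells, and 0 higher and 0 to 1 lower in the interaction. All genes moved too, over 1194 to 1413 higher and 2420 to 2872 lower with IL-4 in Sirt3 K223R. In wild type they gave 918 to 1224 higher and 1247 to 1765 lower. Sirt3 K223R against wild type with IL-4 gave 380 to 576 higher and 748 to 991 lower. Untreated cells gave 0 higher and 0 to 2 lower, and the interaction 36 to 130 higher and 73 to 205 lower. With 1 library left out a group has 3, and depth, being unknown, sets no limit that can be stated.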
